A study of Mus musculus with 6 samples.

Results

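Nuclear receptors of the Nr4a family and genes of the glucocorticoid response were described in RNA of lamina propria cells from the mouse colon. The members were taken by symbol: Nr4a1, Nr4a2, Nr4a3, Nr3c1, Tsc22d3, Fkbp5, Sgk1 and Zbtb16. All 8 of 8 symbols matched a row, out of 55401 gene rows in each library. RNA was sequenced in bulk in 3 libraries of mice given atorvastatin at 20 mg/kg by gavage every other day and in 3 libraries of mice given the vehicle, 2% Tween 80. The donors of both groups were Apc Min/+ males of 5 to 6 weeks, so the controls also carry the truncated Apc allele that gives rise to intestinal adenomas. Atorvastatin blocks HMG-CoA reductase, the rate-limiting enzyme of cholesterol synthesis.

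The Nr4a receptors are transcription factors that act without a known hormone and are made within minutes of a stimulus. Antigen receptors, cyclic AMP and calcium all switch their genes on. The glucocorticoid receptor, by contrast, waits in the cytoplasm with heat shock protein chaperones and enters the nucleus when cortisol or corticosterone binds. There it induces genes that restrain inflammation and others that dampen its own signal. The colonic mucosa sees glucocorticoids from the adrenal gland, and the intestine can also make them locally.

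Stretches before the start of the Nr4a genes are shown because all 3 hold the letters through which cyclic AMP is known to act, the core of the cyclic AMP response element (CRE). They come from RefSeq, build GRCm38.p6, the assembly that mm10 names, and run 5′ to 3′ on the strand of the gene. Capitals mark the CRE core TGACG, or CGTCA where it lies on the other strand. The full element TGACGTCA holds the core on both strands, so the searches overlap.
Nr4a1, chr15:101266596-101266845, plus strand: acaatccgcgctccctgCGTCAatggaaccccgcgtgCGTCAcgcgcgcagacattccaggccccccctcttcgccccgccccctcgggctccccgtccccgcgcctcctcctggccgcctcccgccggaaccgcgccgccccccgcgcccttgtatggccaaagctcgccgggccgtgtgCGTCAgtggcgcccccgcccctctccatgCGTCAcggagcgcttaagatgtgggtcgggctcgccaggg
Nr4a2, chr2:57124004-57124253, minus strand: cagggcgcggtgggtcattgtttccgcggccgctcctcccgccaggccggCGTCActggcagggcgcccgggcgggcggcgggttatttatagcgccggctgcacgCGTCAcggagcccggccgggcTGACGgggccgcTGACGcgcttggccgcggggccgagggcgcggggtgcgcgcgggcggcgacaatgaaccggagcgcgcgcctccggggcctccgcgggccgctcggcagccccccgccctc
Nr4a3, chr4:48045055-48045152, plus strand: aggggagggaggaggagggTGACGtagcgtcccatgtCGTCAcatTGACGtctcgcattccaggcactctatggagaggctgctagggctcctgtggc
The window searched ran from 250 bases before the RefSeq start to 50 bases after it, and each of the 3 windows held 4 cores and no full element, which 1.79% of all windows hold. The Nr4a3 stretch stops where an exon is annotated in GENCODE, so 3 of its 4 cores are shown. At least 1 core was present in 20.8% of the 32851 windows of all genes, and at least 4 in 0.231%, which were 76 windows of 69 genes. The cutoff of 4 equals the count in the Nr4a windows, which are among the 76. The windows of all genes were not matched to them for base composition. Of 11 immediate early genes with a window, 0 held 4 cores, and neither did any of 25 glucocorticoid targets with a window. At 0.231% of all windows, lists this small are likely to hold none, so this sets no contrast with the Nr4a genes. In Nr4a1 the cores began 233, 213, 69 and 40 bases before the start, in Nr4a2 200, 144, 123 and 111 bases, and in Nr4a3 231, 213, 205 and 147 bases. The Nr4a1 window lies inside the gene as the files place it (chromosome 15, 101254269 to 101274795), at an internal start.

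**Figure D1:**
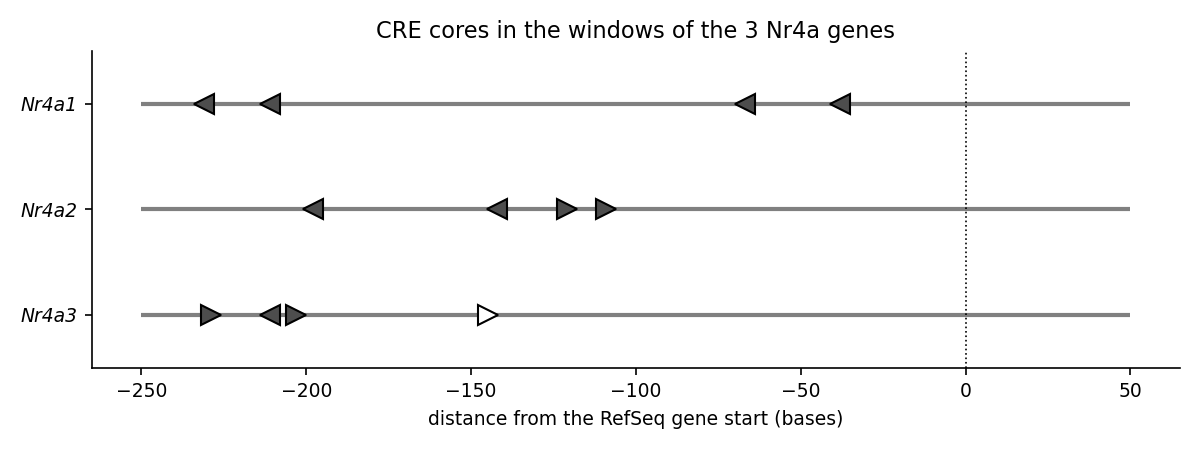
Positions of the CRE core TGACG on the strand of the gene (right-pointing) and on the other strand (left-pointing), by distance in bases from the RefSeq start (dotted line), in windows of 250 bases before to 50 bases after it. Each of the 3 genes holds 4 cores; the open symbol of Nr4a3 lies in an annotated exon.

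The palindrome that the glucocorticoid receptor binds, searched on both strands as AGAACA, any 3 bases and TGTTCT, was found in 3 of the 32851 windows, or 0.00913%. A window of Sgk1 is among them, and its surroundings are shown with the palindrome in capitals.
Sgk1, chr10:21993678-21993738, plus strand: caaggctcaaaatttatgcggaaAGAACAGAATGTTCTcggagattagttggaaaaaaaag
This palindrome begins 189 bases before the fifth of the 6 Sgk1 starts in the table. Windows of Tsc22d3 and Fkbp5 were also searched and did not hold the palindrome, and none were available for Nr3c1 and Zbtb16. Only the exact palindrome near a start was searched, so sites farther away or with other letters would be missed.

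Values are FPKM, fragments scaled by gene length and library, deposited by the authors, so levels can be compared between genes per unit of length. Summed FPKM lay between 355787 and 456064 per library, 13303 to 13703 genes reached 1 FPKM, and the number of fragments behind them is unknown. Immunoglobulin genes held 30.2%, 47.9% and 27.9% of the sum in atorvastatin libraries 1 to 3, and 35.6%, 38.4% and 30.4% in vehicle libraries 1 to 3. Vehicle library 3 stood apart, with a mean Pearson's r across genes of 0.944 to the other libraries against 0.957 to 0.961 for the rest. Markers of B, plasma, T and dendritic cells, macrophages, fibroblasts, endothelium and smooth muscle were all detected, and no marker was at 0 in every library. The 7 epithelium markers, of which 4 passed the filter on low values and had negative differences, summed to 15.2 to 37.7 FPKM with atorvastatin and 23.7 to 36.4 FPKM with vehicle. B cell markers, 6 of 6 with a negative difference, summed to 261 to 275 FPKM with atorvastatin and 320 to 431 FPKM with vehicle, and their part in the results below was not tested. In bulk RNA, fewer cells of a type and less RNA per cell cannot be told apart. The labels do not say that libraries came from separate animals, so p-values measure the spread between libraries, which may be technical.

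The test covered the 13590 genes that reached 1 FPKM in 3 or more libraries, and all 8 members were above that level in every library. No member passed limma's test of log2(FPKM + 1) at a false discovery rate of 0.05, and neither did any other gene (0% of those tested). Of the 8 members, 0 had an unadjusted p under 0.05, against 7.17% of all genes (974). Nr4a1 was higher in every atorvastatin library than in every vehicle library, and the groups overlapped in the other 7 members. That is 1 of 8 members, and groups did not overlap in 14.4% of all genes tested. Differences were positive in 4 members and negative in 4, with a median of 0.04 log2 units, against -0.02 over all genes tested.

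Nr4a1, also known as Nur77 and widely used as a mark of recent antigen receptor signalling, was the most abundant member. It had 239, 198 and 266 FPKM in the atorvastatin libraries and 189, 198 and 186 FPKM in the vehicle libraries. Atorvastatin library 2, at 198.07 FPKM, was level with the highest vehicle library, at 197.74 FPKM, and the other 2 atorvastatin libraries stood well above. The means were 235 ± 34.3 FPKM with atorvastatin and 191 ± 6.22 FPKM with vehicle (SD, n = 3 each), a ratio of 1.23. On the log2(FPKM + 1) scale the difference was 0.29 (SE 0.16, 95% interval -0.10 to 0.67, limma adjusted p = 0.711). The exact permutation test, two-sided, gave p = 0.1, the smallest that 3 against 3 libraries allow. The spread was wider with atorvastatin, where the library lowest in Nr4a1 was the library with the largest immunoglobulin share. Scaled to equal FPKM outside immunoglobulin genes, Nr4a1 had 237, 218 and 271 in the atorvastatin libraries and 188, 203 and 165 in the vehicle libraries. With that scaling the log2 difference was 0.38 (SE 0.15, limma adjusted p = 0.611). The median over all tested genes was then 0.06, against -0.02 without the scaling. In the FPKM as deposited, leaving out atorvastatin library 3 brought the log2 difference of Nr4a1 from 0.29 to 0.19.

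Nr4a2 (chromosome 2, 57106830 to 57124003), also called Nurr1 and best known for its role in dopamine neurons, had 26.0, 21.7 and 27.8 FPKM in the atorvastatin libraries and 26.6, 23.9 and 19.0 FPKM in the vehicle libraries. The groups overlapped, and vehicle library 3 was the lowest of all 6. The log2 difference was 0.12 (SE 0.16, 95% interval -0.27 to 0.51, limma adjusted p = 0.868), and it was -0.01 without vehicle library 3.

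Nr4a3 (chromosome 4, 48045153 to 48086445), or NOR1, which overlaps in function with Nr4a1 in T cells and myeloid cells, had 38.8, 38.1 and 40.4 FPKM in the atorvastatin libraries and 43.2, 38.9 and 45.5 FPKM in the vehicle libraries. Its means were 39.1 ± 1.20 FPKM with atorvastatin and 42.5 ± 3.38 FPKM with vehicle (SD, n = 3 each). The sign was opposite to that of Nr4a1, at -0.12 on the log2 scale (SE 0.11, 95% interval -0.39 to 0.16, limma adjusted p = 0.817). Nr4a3 varied little within groups: its within-group SD of 0.09 log2 units was larger than that of only 8.59% of tested genes.

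Within a library, Nr4a1 made up 78.7%, 76.8% and 79.6% of the summed FPKM of the 3 Nr4a genes with atorvastatin, and 73.0%, 75.9% and 74.2% with vehicle. Nr4a3 made up 12.7%, 14.8% and 12.1% with atorvastatin and 16.7%, 14.9% and 18.2% with vehicle. Neither share overlapped between the groups, while that of Nr4a2 did (8.31% to 8.56% with atorvastatin, 7.59% to 10.3% with vehicle). The nearest Nr4a3 shares were almost level, at 14.8% with atorvastatin and 14.9% with vehicle. The shares are parts of the same sum, so they do not vary independently. In FPKM, the groups did not overlap in 14.4% of all genes tested. The ratio of Nr4a1 to Nr4a3, which does not depend on how libraries are scaled, was 6.17, 5.20 and 6.59 with atorvastatin and 4.37, 5.09 and 4.08 with vehicle. Its log2 difference was 0.41, or 0.33 to 0.50 with any single library left out. The exact permutation test, two-sided, gave p = 0.1, the smallest it can give, and 0.7 when adjusted over the 7 ratios compared among members, which were chosen after the values were seen. The ratio of Nr4a2 to Nr4a3 (0.672, 0.570 and 0.688 with atorvastatin; 0.616, 0.616 and 0.417 with vehicle) overlapped between the groups. The summed FPKM of the family was 304, 258 and 334 with atorvastatin and 259, 261 and 250 with vehicle, and overlapped as well.

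**Figure D2:**
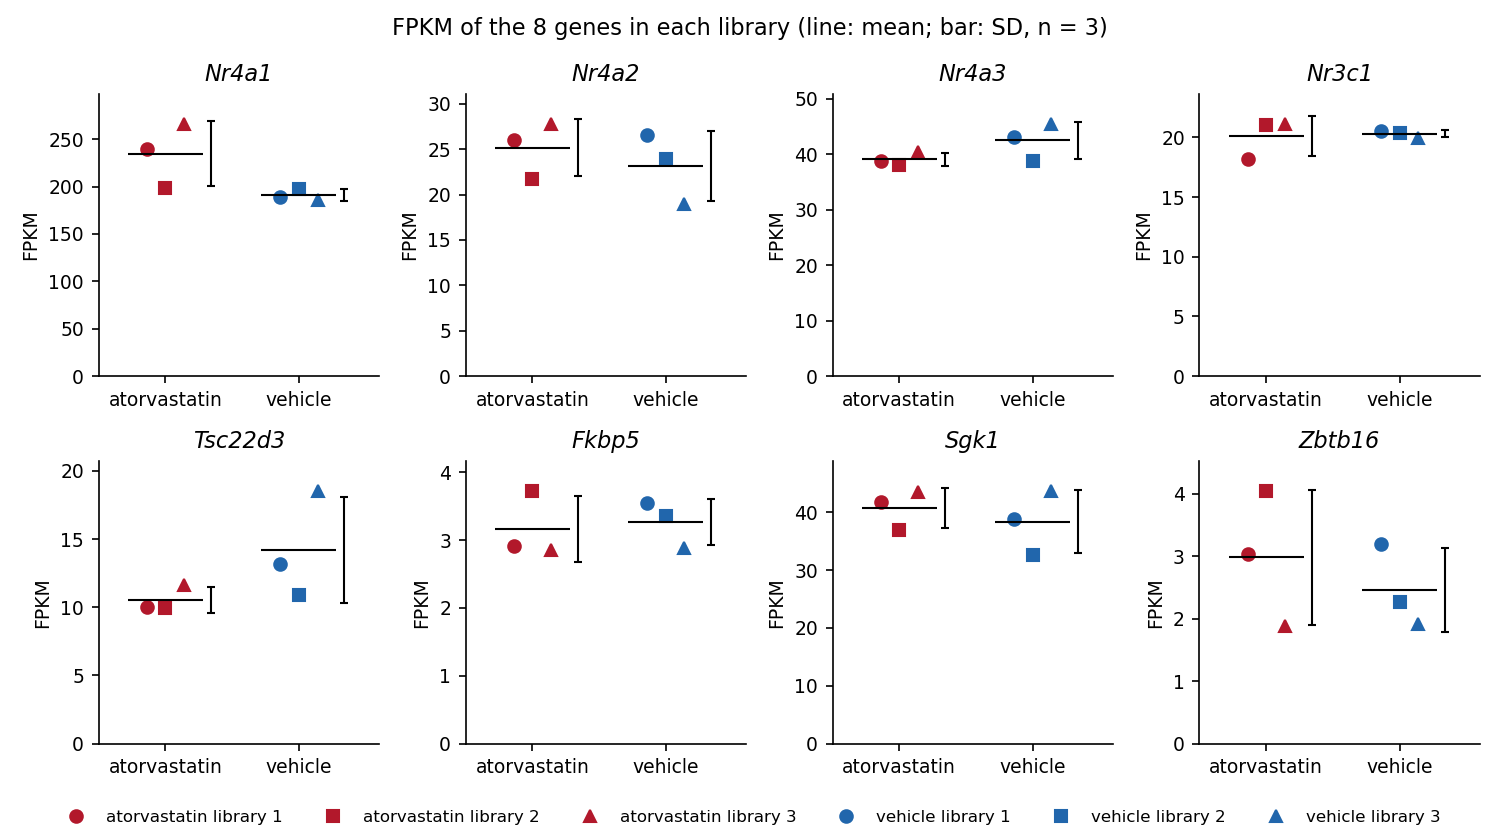
FPKM (y axis, from 0) of each of the 8 genes in the 3 atorvastatin libraries (red, left) and the 3 vehicle libraries (blue, right); symbols mark libraries, lines the mean and bars the SD. Nr4a1 lies at 198 to 266 FPKM with atorvastatin and 186 to 198 FPKM with vehicle, and vehicle library 3 is far above the others in Tsc22d3.

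The glucocorticoid receptor gene Nr3c1 lies on chromosome 18, 39410545 to 39519421. It had 18.14, 21.03 and 21.13 FPKM in the atorvastatin libraries and 20.54, 20.39 and 19.96 FPKM in the vehicle libraries. The vehicle values lay inside the range of the atorvastatin values. The log2 difference was -0.02 (SE 0.11, limma adjusted p = 0.978), with a 95% interval of -0.28 to 0.24, and its sign turned with scaling to equal FPKM outside immunoglobulin genes (0.07).

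Tsc22d3 (chromosome X, 140539528 to 140600659) encodes GILZ, a leucine zipper protein that the receptor induces and that restrains NF-kappaB and AP-1. It had 10.04, 9.92 and 11.6 FPKM in the atorvastatin libraries and 13.2, 10.9 and 18.5 FPKM in the vehicle libraries. Only vehicle library 2 fell among the atorvastatin values, and vehicle library 3 was far above every other. Means were 10.5 ± 0.943 FPKM with atorvastatin and 14.2 ± 3.90 FPKM with vehicle (SD, n = 3 each), a ratio of 0.742. This was the largest difference among the 8 in size, -0.37 on the log2 scale (SE 0.19, 95% interval -0.83 to 0.08, limma adjusted p = 0.696). Of all tested genes, 11.5% had a larger one. Leaving out vehicle library 3, the library that stood apart across genes, brought it to -0.18, and leaving out vehicle library 2 to -0.53.

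Fkbp5 (chromosome 17, 28399094 to 28517527) encodes FKBP51, a chaperone partner that lowers the receptor's affinity for hormone and is itself induced by it. Its level was low, with 2.91, 3.72 and 2.85 FPKM in the atorvastatin libraries and 3.55, 3.36 and 2.89 FPKM in the vehicle libraries. The groups covered nearly the same range, and the rows that overlap this gene on the genome, on either strand, had at most 0.09 FPKM. The log2 difference was -0.04 (SE 0.13, 95% interval -0.35 to 0.27, limma adjusted p = 0.945), and 0.03 with scaling to equal FPKM outside immunoglobulin genes.

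Sgk1 (chromosome 10, 21882184 to 21999893), a serine/threonine kinase that controls ion channels and also promotes IL-17 production in T cells, was the most abundant of the 4 target genes. It had 41.8, 37.0 and 43.5 FPKM in the atorvastatin libraries and 38.8, 32.7 and 43.6 FPKM in the vehicle libraries. The lowest value was a vehicle library and so was the highest. The log2 difference was 0.09 (SE 0.15, 95% interval -0.25 to 0.44, limma adjusted p = 0.884). It turned to -0.02 when vehicle library 2 was left out. Scaled to equal FPKM outside immunoglobulin genes, the groups no longer overlapped, at 41.4, 40.6 and 44.3 with atorvastatin and 38.6, 33.6 and 38.8 with vehicle. That scaling also moved the median log2 difference over all tested genes, from -0.02 to 0.06. The share of all genes without overlap under it is not given here.

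Zbtb16 (chromosome 9, 48654297 to 48836222) encodes PLZF, a zinc finger factor that directs the development of innate-like lymphocytes and is induced by glucocorticoids in several tissues. It had 3.04, 4.04 and 1.88 FPKM in the atorvastatin libraries and 3.20, 2.27 and 1.91 FPKM in the vehicle libraries. No member varied more between libraries: the highest value was 2.15 times the lowest, and both were atorvastatin libraries. The log2 difference was 0.18 (SE 0.24, 95% interval -0.38 to 0.74, limma adjusted p = 0.858). It was -0.00 without atorvastatin library 2, 0.40 without atorvastatin library 3 and -0.12 with array weights.

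**Figure D3:**
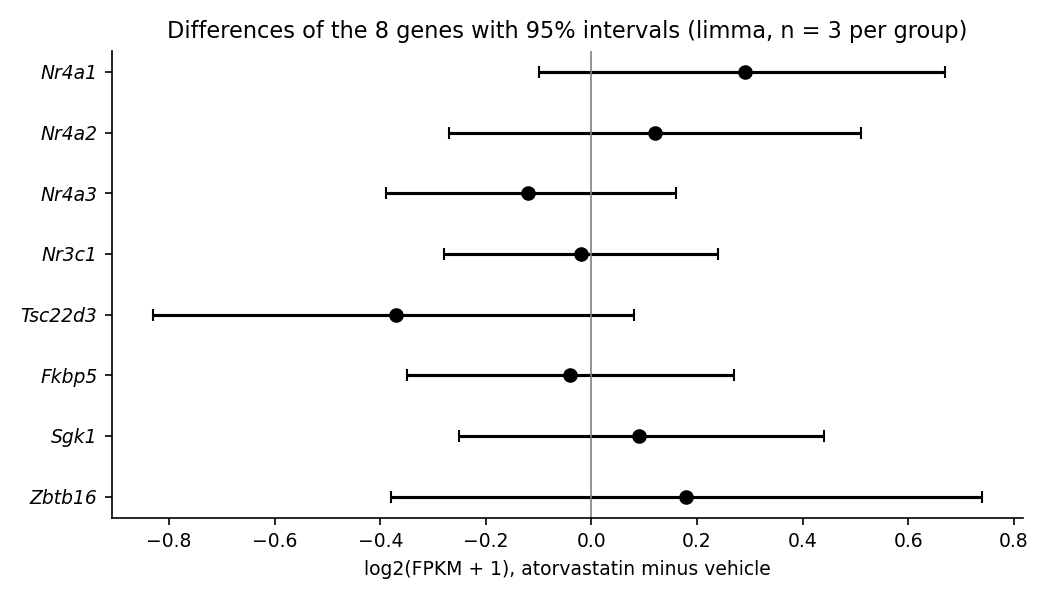
Difference of log2(FPKM + 1), atorvastatin minus vehicle, for each of the 8 genes (points) with limma's 95% interval (bars, n = 3 per group). Every interval crosses 0; the points run from -0.37 for Tsc22d3 to 0.29 for Nr4a1.

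By level per unit of length, the order over all 6 libraries was Nr4a1, Nr4a3, Sgk1, Nr4a2, Nr3c1, Tsc22d3, Fkbp5 and Zbtb16. Nr4a1 averaged 213 FPKM, a level that 98.3% of tested genes did not exceed, and its lowest library (186 FPKM) lay above the highest library of Nr4a3 (45.5 FPKM). Nr4a3 and Sgk1 overlapped, with Nr4a3 higher in 4 of 6 libraries. Ranges did not overlap between Sgk1 (32.7 to 43.6 FPKM) and Nr4a2 (19.0 to 27.8 FPKM). Nr4a2 exceeded Nr3c1 (18.1 to 21.1 FPKM) in 5 of 6 libraries and Nr3c1 exceeded Tsc22d3 (9.92 to 18.5 FPKM) in 6 of 6, although both pairs of ranges overlapped. Fkbp5 (2.85 to 3.72 FPKM) and Zbtb16 (1.88 to 4.04 FPKM) were the lowest and could not be separated. Fkbp5 had a level that only 32.7% of tested genes did not exceed.

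Genes whose pattern over the 6 libraries was closest to that of Nr4a1 were Ssh1, Flot2 and Prkar1b. Likeness was measured as the root mean square difference of log2(FPKM + 1), each gene centred on its own mean, and was 0.024, 0.028 and 0.032 log2 units. Nr4a1 itself deviated from its mean by 0.191. For Sgk1 they were Csnk1a1, Stip1 and Alg13, at 0.014, 0.014 and 0.016, against a deviation of 0.144 for Sgk1. With 13590 genes and 6 libraries, close matches are found for most patterns.

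Other genes of the pathways were taken from 8 lists with 140 genes, of which 125 were tested. None passed at a false discovery rate of 0.05 in limma. At an unadjusted p under 0.05, 7 of the 125 were higher and 3 lower, against 3.13% and 4.04% of all genes. The groups did not overlap for 15 higher and 7 lower genes, against 5.53% and 8.85% of all genes. Differences were positive for 91 of 125 genes, against 47% of all genes.

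Of 30 further glucocorticoid targets, 28 were tested and 0 passed. Their median log2 difference was 0.11, with 22 positive and 6 negative, against -0.02 over all genes. It ran from 0.06 without atorvastatin library 1 to 0.25 without atorvastatin library 2. The most abundant were Zfp36, which destabilises cytokine mRNA, and Nfkbia, the inhibitor of NF-kappaB. Zfp36 had 459 ± 81.3 FPKM with atorvastatin and 379 ± 77.4 FPKM with vehicle (SD, n = 3 each). Nfkbia had 397 ± 73.8 FPKM with atorvastatin and 357 ± 61.5 FPKM with vehicle. Targets shared with other stimuli had small positive differences: 0.16 for the clock gene Per1 (SE 0.26), 0.18 for the MAP kinase phosphatase Dusp1 (SE 0.16), 0.07 for Klf9 (SE 0.21) and 0.20 for the mTOR inhibitor Ddit4 (SE 0.22). The metallothioneins Mt1 (0.14, SE 0.31) and Mt2 (0.05, SE 0.45), which bind zinc, were widely spread, and vehicle library 3 was highest in both. Anxa1, the anti-inflammatory annexin, had a negative difference of -0.26 (SE 0.22).

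Within that list 5 of 28 genes had an unadjusted p under 0.05, against 7.17% of all genes, and they were named after their values were seen. Angptl4, an inhibitor of lipoprotein lipase, had 4.82, 4.01 and 4.06 FPKM in the atorvastatin libraries and 2.58, 1.73 and 2.02 FPKM in the vehicle libraries. Every atorvastatin value was above every vehicle value, and the group means differed by 0.77 on the log2 scale (SE 0.14, limma adjusted p = 0.627). Mertk, a receptor for the uptake of dying cells, had a difference of 0.29 (SE 0.10). Macrophages express it, and 6 of 6 tested macrophage markers had positive differences, with sums of 173 to 187 FPKM with atorvastatin and 107 to 215 FPKM with vehicle over the 7 listed; their part was not tested. The differences of Lcn2, which binds bacterial siderophores (-0.63, SE 0.22), Sult1a1, a sulfotransferase (-0.44, SE 0.18), and Il1r2, the decoy receptor of IL-1 (-0.35, SE 0.13), were negative. For all 4 the limma adjusted p was 0.692. Neutrophil markers, among which Il1r2 is often counted, summed to 6.04 to 10.04 FPKM with atorvastatin and 8.67 to 16.0 FPKM with vehicle, and their part was not tested.

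The genes that fold the receptor, assist it or convert its ligand numbered 20, with 19 tested and 0 past the threshold. Their median log2 difference was 0.17, and 16 of 19 were positive; the median was 0.06 without vehicle library 3 and 0.05 with array weights. Fkbp4, the partner that favours hormone binding and so opposes Fkbp5, had 19.7, 19.3 and 18.5 FPKM in the atorvastatin libraries and 21.6, 21.1 and 21.7 FPKM in the vehicle libraries. The groups were narrow and did not overlap, with every atorvastatin library below every vehicle library, as in 8.85% of all genes. They differed by -0.16 on the log2 scale (SE 0.10, limma adjusted p = 0.726). In 3 further genes of this list, named after their values were seen, every atorvastatin library was above every vehicle library, as in 5.53% of all genes: the coactivators Ncoa1 (0.20, SE 0.11) and Crebbp (0.25, SE 0.15), and H6pd (0.30, SE 0.13), which supplies Hsd11b1 with its cofactor. The chaperone Hsp90aa1 had 254 ± 37.7 FPKM with atorvastatin and 213 ± 26.8 FPKM with vehicle, and the most abundant members, Dnajb1 and Hspa8, had differences of 0.38 (SE 0.22) and -0.32 (SE 0.19). Hsd11b1, which regenerates active hormone inside cells, had 10.4 ± 0.501 FPKM with atorvastatin and 9.98 ± 2.28 FPKM with vehicle. The mineralocorticoid receptor gene Nr3c2 was low, at 2.60 ± 0.947 FPKM with atorvastatin and 2.14 ± 0.540 FPKM with vehicle.

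Of 10 genes for the synthesis of glucocorticoids in the gut, 3 reached the filter. Cyp11a1, the enzyme that starts steroid synthesis from cholesterol, had 0.27, 0.47 and 0.42 FPKM in the atorvastatin libraries and 0.58, 0.76 and 0.15 FPKM in the vehicle libraries. Nr5a2, or LRH-1, the factor that drives this pathway in gut epithelium, had 0.13 to 0.24 FPKM in all libraries. Both were too low to be tested over all genes, and their groups overlapped. The ferredoxin Fdx1 (0.18, SE 0.16) and its reductase Fdxr (-0.10, SE 0.14), which are mitochondrial and not particular to steroid synthesis, were among the 3 tested. Star, named after its value was seen, was the remaining gene tested, with a log2 difference of 0.10.

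Genes on the route from cyclic AMP and calcium to the Nr4a promoters numbered 22, all tested, with 0 past the threshold and a median log2 difference of 0.06. That median was -0.03 without vehicle library 3 and 0.14 without vehicle library 2. The most abundant, Crtc2, a coactivator of CREB, had a difference of 0.37 (SE 0.21), and Prkar1a, a regulatory subunit of protein kinase A, had -0.05 (SE 0.11). Crem, a CREB-related factor whose short forms repress CRE genes, had 20.1, 18.9 and 18.2 FPKM in the atorvastatin libraries and 22.4, 21.4 and 28.8 FPKM in the vehicle libraries. Its groups did not overlap, and the log2 difference came to -0.32 (SE 0.14, limma adjusted p = 0.696). The groups did not overlap in 13.6% of this list, against 14.4% of all genes. Of the 22 genes, 2 had an unadjusted p under 0.05, against 7.17% of all genes. Both were named after their values were seen. Pde4b, a phosphodiesterase that degrades cyclic AMP, had 83.1, 74.1 and 106 FPKM in the atorvastatin libraries and 46.9, 34.5 and 36.6 FPKM in the vehicle libraries. The gap between the groups was wide, at 1.13 on the log2 scale (SE 0.19, limma adjusted p = 0.606). Sik1, a kinase induced by CREB that restrains its coactivators, had 38.5, 31.3 and 38.1 FPKM in the atorvastatin libraries and 27.8, 28.1 and 25.7 FPKM in the vehicle libraries (0.38, SE 0.13, limma adjusted p = 0.692).

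Nr4a partners and targets described in lymphocytes had a median log2 difference of 0.00 over 14 tested genes of 15, 7 positive and 7 negative. Rxra, the retinoid X receptor with which Nr4a1 and Nr4a2 pair, had 3.69 ± 0.336 FPKM with atorvastatin and 3.54 ± 0.622 FPKM with vehicle. The most abundant were Gadd45b (0.28, SE 0.27) and the AP-1 subunit Fosl2. Fosl2 had 62.8, 52.5 and 69.9 FPKM in the atorvastatin libraries and 48.9, 42.9 and 45.8 FPKM in the vehicle libraries, a difference of 0.41 (SE 0.14, limma adjusted p = 0.692) with groups that did not overlap. Groups did not overlap in 7.14% of this list, against 14.4% of all genes.

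Immediate early genes, which are switched on by the same stimuli as Nr4a1 and also by the isolation of cells from tissue, had a median log2 difference of 0.30. Of the 15, all tested, 13 were positive, 2 negative and 0 past the threshold, and the median lay between 0.21 and 0.44 with any single library left out. Egr1 had 689, 552 and 873 FPKM in the atorvastatin libraries and 412, 460 and 567 FPKM in the vehicle libraries. Only atorvastatin library 2 fell below the highest vehicle library, and the log2 difference was 0.54 (SE 0.24, limma adjusted p = 0.696). Fos had a difference of 0.42 (SE 0.23) and Junb of 0.29 (SE 0.21), and in both, as in Nr4a1, library 2 was the lowest of the atorvastatin group. That was not particular to these genes. The same library was lowest of its group in Nr4a2, Nr4a3, Tsc22d3 and Sgk1, but not in Nr3c1, Fkbp5 or Zbtb16. It had the largest immunoglobulin share, 47.9%, and the part of that share was not tested. Scaled to equal FPKM outside immunoglobulin genes, atorvastatin library 2 remained lowest of its group in Nr4a1, Nr4a2 and Sgk1, but not in Nr4a3 or Tsc22d3. The members tied to antigen receptor signalling were mixed: Egr2 ranged from 5.99 to 35.7 FPKM with atorvastatin and from 5.74 to 30.4 FPKM with vehicle, and Egr3 had a difference of -0.09 (SE 0.15).

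Heat shock genes, 8 of 8 tested, had a median log2 difference of 0.23, with 6 positive and 0 past the threshold. The median ran from 0.15 without atorvastatin library 3 to 0.39 without atorvastatin library 2. Hspa1a and Hspa1b, the inducible forms of HSP70, did not overlap between groups. They were higher in every atorvastatin library than in every vehicle library, as were 5.53% of all genes. Both ranked the libraries in the same order, so they are not separate observations. Hspa1b had 2362, 1919 and 2586 FPKM in the atorvastatin libraries and 1821, 1746 and 1474 FPKM in the vehicle libraries, and Hspa1a had a difference of 0.43 (SE 0.24, limma adjusted p = 0.711). These genes and the immediate early genes, both of which react to cell handling, had positive medians, the sign that Nr4a1 had. Over all lists, these included, 91 of 125 genes had positive differences, against 47% of all genes tested. The part of the heat shock and immediate early genes in the difference of Nr4a1 was not tested.

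**Figure D4:**
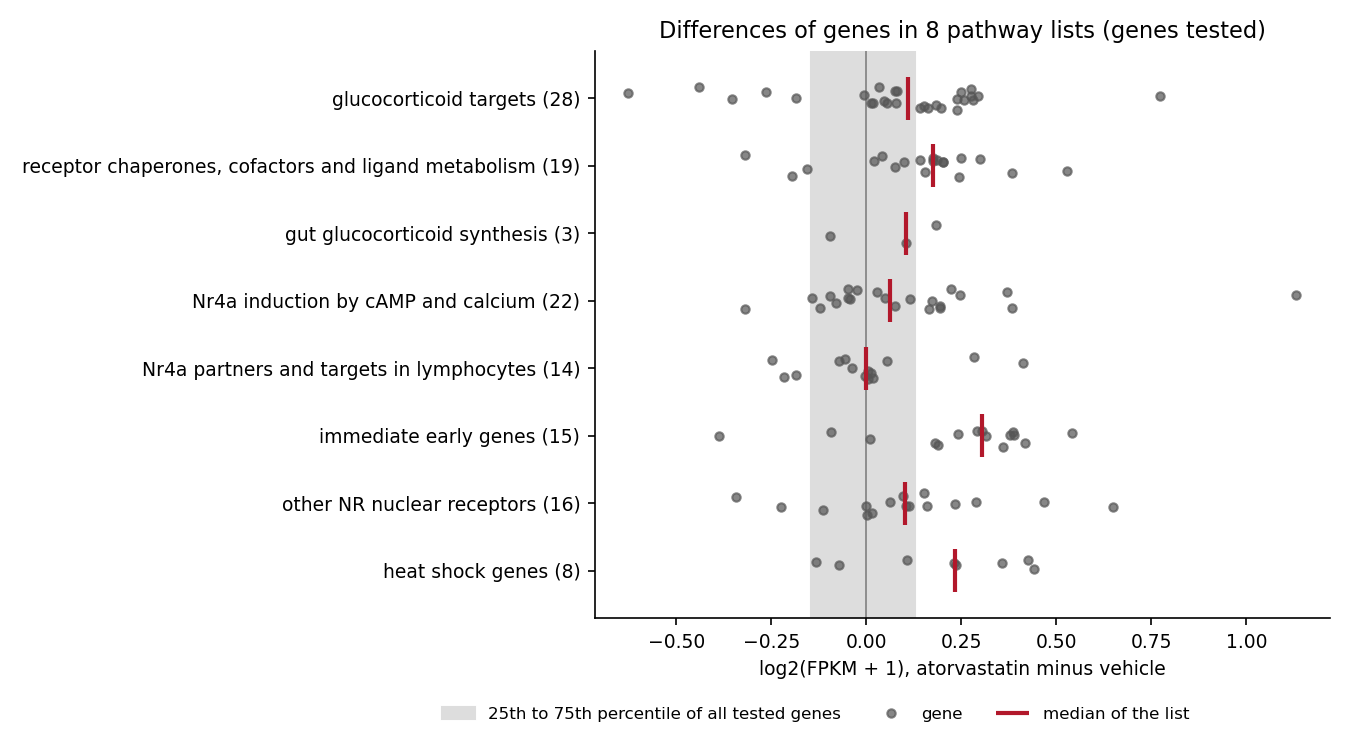
Difference of log2(FPKM + 1), atorvastatin minus vehicle, for the tested genes (points) of 8 pathway lists, with each list's median (red) and the 25th to 75th percentile of all tested genes (grey). Medians run from 0.00 for Nr4a partners to 0.30 for immediate early genes, and the point farthest right is Pde4b at 1.13.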

How the data were processed

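RNA of colonic lamina propria cells was measured in 3 atorvastatin and 3 vehicle libraries. The authors deposited FPKM, scaled by gene length and library and written with 2 decimals. FastQC 0.11.2, Bowtie and mm10 are named, per the submitters' processing notes. Which quantifier, annotation and strand setting were used is not stated there. Fragment counts could not be recovered from the values, so no count test was run and depth is unknown.

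Symbols came from GENCODE mouse release 21 (55141 of 55401 IDs). The 13590 genes that reached 1 FPKM in 3 or more libraries entered a limma-trend fit of log2(FPKM + 1) (limma 3.58.1, R 4.3.3), with Benjamini-Hochberg adjustment over all of them, in a script tested on simulated data. This scale understates changes of low genes. Ratios were compared by an exact permutation test (scipy 1.17.1). Named genes were the members, the 2 most abundant tested genes of each list, set genes and the closest patterns; others are said to be chosen after their values were seen. The members and lists were chosen with earlier results of these data known. Other pseudocounts, filters, scalings and variance models, a block for the replicate number, and fits without each library were tried. Removing a length trend and equal sums per library were chosen after seeing the data.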

Additional observations from a re-analysis of the deposited data

How the results depend on the processing

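No member passed the test under any of the alternatives, with limma adjusted p from 0.138 (Nr4a1, array weights) upwards. Over all genes, 0 passed in the analysis reported, 4 with array weights and between 0 and 2 when single libraries were left out (1 without atorvastatin library 1, 2 without atorvastatin library 3); 0 listed pathway genes passed in any setting. With single libraries left out the log2 differences ran from 0.19 to 0.40 for Nr4a1, -0.01 to 0.22 for Nr4a2, -0.18 to -0.07 for Nr4a3, -0.05 to 0.05 for Nr3c1, -0.53 to -0.18 for Tsc22d3, -0.13 to 0.01 for Fkbp5, -0.02 to 0.19 for Sgk1 and -0.00 to 0.40 for Zbtb16. Signs also turned with array weights for Nr4a2 (-0.01) and Zbtb16 (-0.12), with median-of-ratios scaling for Nr3c1 (0.01), with equal FPKM outside immunoglobulin genes for Nr3c1 (0.07) and Fkbp5 (0.03), and with equal sums for Nr3c1 (0.05) and Fkbp5 (0.01); the cause was not tested. Nr4a1, Nr4a3 and Tsc22d3 kept their sign in all 18 alternatives. A filter at 5 FPKM left Fkbp5, Zbtb16 and the synthesis list untested.

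The labels do not say what a replicate number marks. Deviations of same-numbered libraries from their group means correlated at -0.109, 0.137 and -0.015, so the numbers were not taken to pair the libraries. With the replicate number as a block 0 genes passed, and the log2 difference of Nr4a1 was 0.29 (limma adjusted p = 0.738). Precision limits these comparisons: the 95% interval lay within 0.5 log2 units of 0 for 46.3% of all genes.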

Other observations

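Nuclear receptors outside the Nr4a family and the glucocorticoid receptor had a median log2 difference of 0.10 over 16 tested genes of 20, with 12 positive and 0 past the threshold in limma. The median was 0.04 without vehicle library 3 and 0.05 without atorvastatin library 3. Ppard, a receptor for fatty acids whose targets include Angptl4 and Pdk4, was named after its values were seen: it had 7.10, 5.72 and 6.36 FPKM in the atorvastatin libraries and 4.74, 4.63 and 2.21 FPKM in the vehicle libraries (0.65, SE 0.24, limma adjusted p = 0.692). Pdk4, likewise, had 2.75, 2.32 and 2.53 FPKM in the atorvastatin libraries and 1.58, 2.21 and 2.16 FPKM in the vehicle libraries (0.25, SE 0.13, limma adjusted p = 0.696). Ppard, Angptl4 and Pdk4 were put side by side after their values were seen, and a link between them was not tested. In each the groups did not overlap, and every atorvastatin library was above every vehicle library, as in 5.53% of all genes. Nr1d1, the clock repressor REV-ERB alpha and the most abundant of the list, had 79.9, 20.3 and 55.4 FPKM in the atorvastatin libraries and 59.6, 31.7 and 17.6 FPKM in the vehicle libraries, with each group spread widely.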
